A study of Mus musculus with 2 samples.

Results

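Core circadian clock genes were followed in single cells of the mouse arcuate nucleus and median eminence, the hypothalamic floor that controls feeding and the pituitary. The set held 10 of the 29809 genes in the deposited count tables and was chosen by name: Clock, Arntl, Per1, Per2, Per3, Cry1, Cry2, Nr1d1, Nr1d2 and Dbp. All 10 had counts in both libraries. The cells were profiled by Drop-seq, in which each droplet pairs a cell with a barcoded bead and the 3' end of each transcript is sequenced. Unique molecular identifiers (UMIs), which tag single transcripts, were counted.

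The Irx3/5dHet library came from 5 pooled mice with the genotype Irx3/5+/-, heterozygous for loss of the Iroquois transcription factor genes Irx3 and Irx5. The WT library came from 7 pooled wild type mice. All mice were CD-1 animals of 7 to 8 weeks, and live cells were sorted from the dissected tissue of both genotypes. The labels used here give neither the part deleted in each gene, the sex of the mice nor the hour of dissection. With 1 pooled library per genotype there was no replicate and no test. Genotype, pool and hour of dissection cannot be told apart, and each interval below is at 95% and covers counting error only.

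The clock is a loop of transcription and repression that runs over about a day in most cells. The proteins of Clock and Arntl (BMAL1) pair and bind E-boxes, short DNA motifs that drive the Per and Cry genes, Nr1d1, Nr1d2 and Dbp. The PER and CRY proteins return to the nucleus and repress that pair. The proteins of Nr1d1 and Nr1d2 (REV-ERB alpha and beta) repress Arntl through ROR elements, and DBP drives further genes through D-boxes. The suprachiasmatic nucleus, the master pacemaker in front of the arcuate nucleus, keeps the body's time. The pars tuberalis, the part of the pituitary wrapped around the median eminence, takes its own daily rhythm from melatonin. Since the RNA of most of these genes swings over the day, a level depends on the hour at which the tissue was taken.

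The promoters of Nr1d1, Nr1d2 and Dbp are shown because these clock outputs gave the most UMIs in suprachiasmatic-like cells and had unlike ratios between the libraries. Each window runs from 250 bases before to 50 after the RefSeq start site in GRCm38.p6 and is written on the gene's own strand. Capitals mark a motif found.
Nr1d1 (chr11:98775328-98775627, minus strand): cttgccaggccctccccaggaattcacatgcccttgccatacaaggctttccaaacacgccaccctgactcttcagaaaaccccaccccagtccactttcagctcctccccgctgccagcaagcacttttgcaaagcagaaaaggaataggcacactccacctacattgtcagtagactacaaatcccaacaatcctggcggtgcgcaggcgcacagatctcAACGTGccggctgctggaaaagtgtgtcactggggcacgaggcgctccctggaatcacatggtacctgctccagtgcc
Nr1d2 (chr14:18239057-18239356, minus strand): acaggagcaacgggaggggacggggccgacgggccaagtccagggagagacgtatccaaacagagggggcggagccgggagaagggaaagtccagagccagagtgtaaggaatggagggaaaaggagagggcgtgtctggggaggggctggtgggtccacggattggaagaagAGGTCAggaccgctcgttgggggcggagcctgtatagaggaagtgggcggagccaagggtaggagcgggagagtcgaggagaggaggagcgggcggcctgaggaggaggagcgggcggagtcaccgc
Dbp (chr7:45704997-45705296, plus strand): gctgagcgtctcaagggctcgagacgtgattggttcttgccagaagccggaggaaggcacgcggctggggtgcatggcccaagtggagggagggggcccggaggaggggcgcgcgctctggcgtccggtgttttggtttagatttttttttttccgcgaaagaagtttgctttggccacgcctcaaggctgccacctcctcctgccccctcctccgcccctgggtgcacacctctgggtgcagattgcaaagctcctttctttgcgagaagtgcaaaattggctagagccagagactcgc

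The motifs searched on both strands were the E-box CACGTG, its variant CACGTT, the ROR element core AGGTCA and the cyclic AMP element core TGACG. The Nr1d1 window held 1 CACGTT, on the opposite strand, with its first base 28 bases before the start site (-28). The Nr1d2 window held 1 AGGTCA on its own strand at -77, and the Dbp window held no match. Because each window had at most 1 match, none overlapped another. Over 32851 promoter windows, 7.15% held CACGTG, 4.68% CACGTT, 16.3% AGGTCA and 20.8% TGACG. The RefSeq table had windows for 9 of the 10 genes. CACGTG stood in those of Per1 (at -166) and Cry1 (at -60). A match describes these letters only.

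After filtering, 1480 Irx3/5dHet cells with 2850978 UMIs and 2392 WT cells with 4255875 UMIs were used. The median was 1156.5 UMIs per Irx3/5dHet cell and 1274 per WT cell. Of all barcodes, 3 sequences occurred in both libraries, 1 of them among used cells. Cells were clustered without 40 clock genes and named from markers. Suprachiasmatic output genes such as Avp, Prok2, Nms and Rgs16 were not left out, so the suprachiasmatic-like class can depend on their levels. Suprachiasmatic-like neurons (70 Irx3/5dHet and 130 WT cells) were led by Rgs16, Prok2, Nms, Vgf and Avp, and all 10 suprachiasmatic markers were found in them in both libraries. Their marker sum was 10710 CPM (counts scaled to 1000000 UMIs) in Irx3/5dHet and 15520 CPM in WT, and without Avp 4116 CPM in Irx3/5dHet and 7108 CPM in WT. Pars tuberalis-like cells (44 and 90) were led by Chga, Apoc3, Chgb, Cga and Cck, with the thyrotropin gene Tshb among their top 10 genes. Other neurons were 637 Irx3/5dHet and 695 WT cells, and tanycyte-like cells, the radial glia of the ventricle floor, were 177 and 402. In bulk sums of a class, fewer expressing cells and less RNA per cell cannot be told apart. Shares of cells with a UMI at equal depth are given below for Nr1d1 and Nr1d2.

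Clock gene RNA was densest in the suprachiasmatic-like and pars tuberalis-like cells of both libraries. The 10 genes together had 1019 CPM in Irx3/5dHet and 1058 CPM in WT suprachiasmatic-like neurons (124 and 276 UMIs). In pars tuberalis-like cells they had 1210 CPM in Irx3/5dHet and 1185 CPM in WT (86 and 185 UMIs). Other neurons held 257 CPM in Irx3/5dHet and 342 CPM in WT, and tanycyte-like cells 237 CPM and 423 CPM. Suprachiasmatic-like and pars tuberalis-like cells made up 7.70% of Irx3/5dHet and 9.20% of WT cells. They held 53.1% of the Nr1d1 UMIs of the Irx3/5dHet library and 44.5% of those of the WT library.

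**Figure D1:**
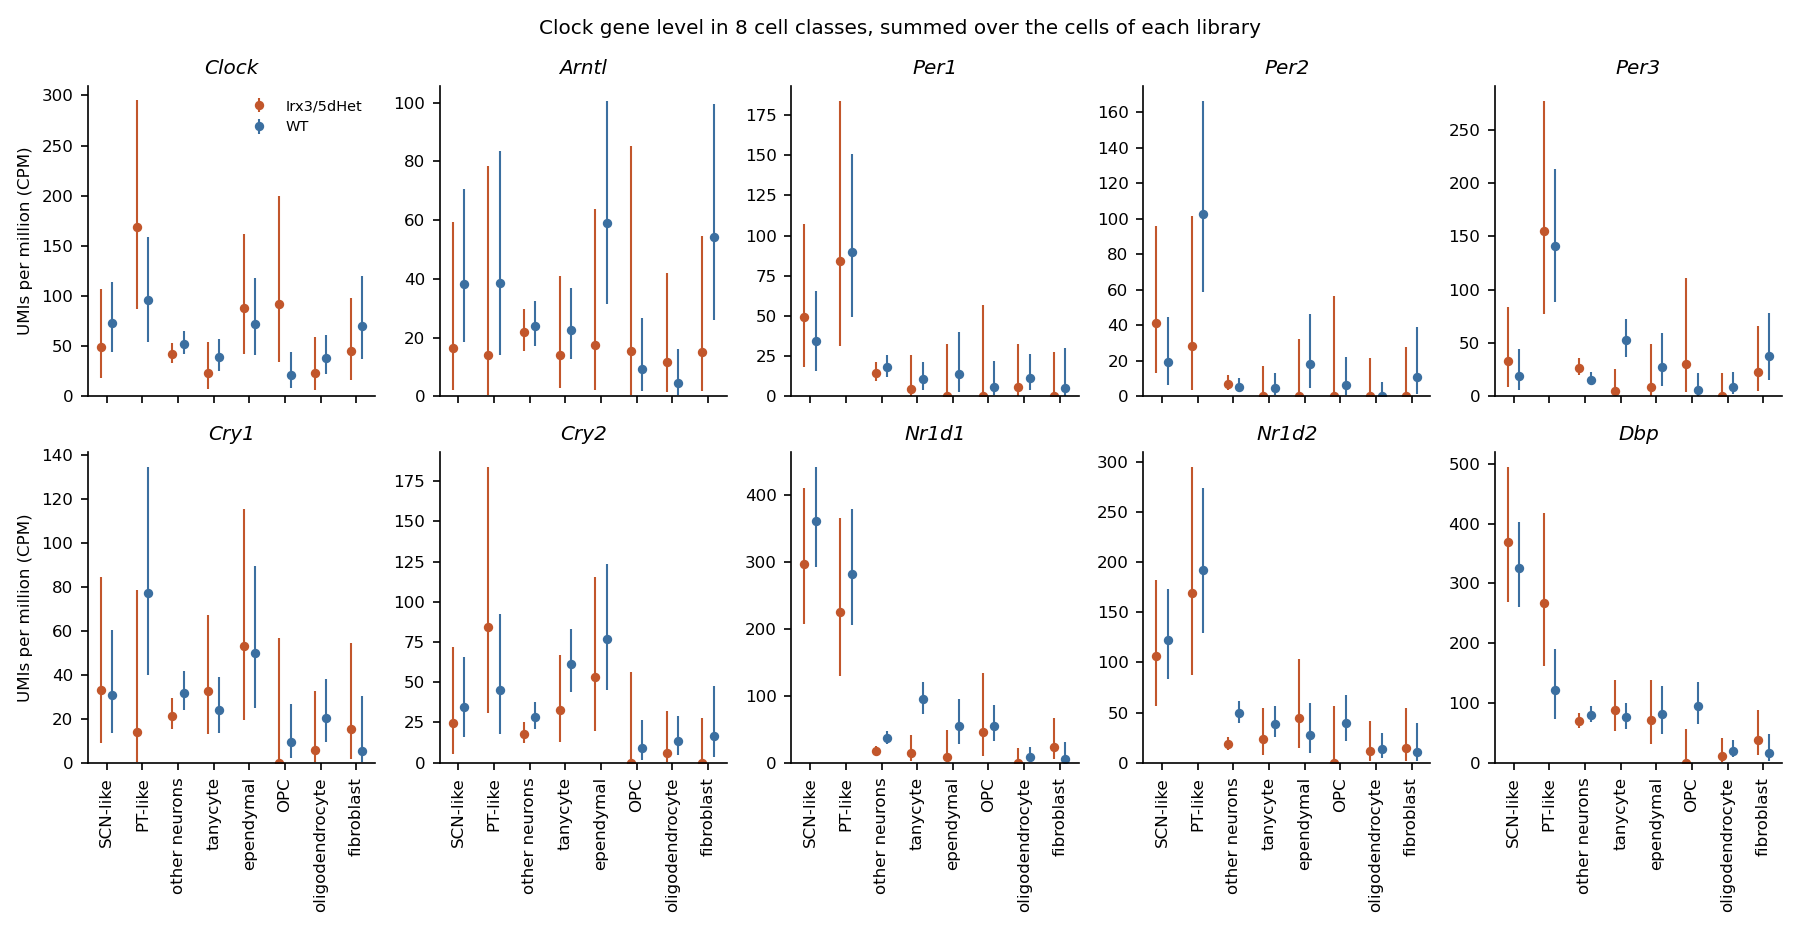
Level of each of the 10 clock genes in CPM (linear axis from 0, one scale per gene) in 8 cell classes, with Irx3/5dHet left of WT. Points are sums over the cells of a class in a library and bars are exact 95% Poisson intervals. Nr1d1 and Dbp stand highest in suprachiasmatic-like (SCN-like) cells of both libraries, at 296 and 360 CPM for Nr1d1 and at 370 and 326 CPM for Dbp. PT-like stands for pars tuberalis-like and OPC for oligodendrocyte precursor-like cells.

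Nr1d1, a repressor driven directly by the CLOCK pair, was ordered alike at the top in both libraries. In Irx3/5dHet it had 296 CPM (207 to 409) in suprachiasmatic-like neurons, 225 CPM (129 to 366) in pars tuberalis-like cells and 78.3 CPM (21.3 to 201) in epithelial-like cells. The remaining Irx3/5dHet classes were at 46.0 CPM or below: precursors of oligodendrocytes at 46.0, fibroblast-like cells at 22.6, other neurons at 17.4 (11.8 to 24.7), tanycyte-like cells at 13.97 (2.88 to 40.8) and ependymal-like cells at 8.82. Oligodendrocyte-like, microglia-like and mural-like Irx3/5dHet cells had 0 UMIs, which allows up to 17.4, 61.7 and 62.4 CPM. In WT it had 360 CPM (291 to 441) in suprachiasmatic-like neurons, 282 CPM (205 to 378) in pars tuberalis-like cells and 108 CPM (46.6 to 213) in epithelial-like cells. Next in WT stood tanycyte-like cells at 94.2 CPM (72.4 to 120.5), oligodendrocyte precursor-like cells at 54.9, ependymal-like cells at 54.4 and other neurons at 37.1 (28.4 to 47.6). WT microglia-like, oligodendrocyte-like and fibroblast-like cells had 19.4, 8.95 and 5.41 CPM, and mural-like cells 0 UMIs, which allows up to 36.9 CPM. The intervals of the suprachiasmatic-like and pars tuberalis-like levels overlapped in each library. Tanycyte-like cells stood above other neurons in WT, with intervals that did not overlap, and not in Irx3/5dHet.

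Clock had 49.3 CPM in Irx3/5dHet and 72.8 CPM in WT suprachiasmatic-like neurons, and 42.6 CPM in Irx3/5dHet and 52.7 CPM in WT other neurons. Its highest level in either library was in pars tuberalis-like cells, at 169 CPM in Irx3/5dHet and 96.1 CPM in WT, on 12 and 15 UMIs. Arntl, its partner, had 21.9 CPM in Irx3/5dHet and 23.9 CPM in WT other neurons.

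Among the repressors, Per1 was highest in pars tuberalis-like cells in both libraries, at 84.4 CPM in Irx3/5dHet and 89.7 CPM in WT, on 6 and 14 UMIs. In other neurons Per1 had 14.6 CPM in Irx3/5dHet and 17.9 CPM in WT. Cry1 had 52.9 CPM in Irx3/5dHet and 49.8 CPM in WT ependymal-like cells, and 21.3 CPM in Irx3/5dHet and 31.7 CPM in WT other neurons. The ependymal-like levels of Cry1 rest on 6 and 11 UMIs, and these differences between classes were not tested.

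Within each library, 3 of the 10 genes were higher in suprachiasmatic-like than in other neurons in both: Nr1d1, Nr1d2 and Dbp. A gene is called here when it is past 1.5-fold with an interval that leaves out 1, which held upward for 4.86% of all genes in Irx3/5dHet and 5.69% in WT. Nr1d1 was 17.0-fold higher (10.2 to 28.5) in Irx3/5dHet and 9.72-fold higher (6.98 to 13.6) in WT. Nr1d2, its paralog, was at 107 against 18.5 CPM in Irx3/5dHet, 5.78-fold (2.79 to 11.3), and at 123 against 49.7 CPM in WT, 2.47-fold (1.59 to 3.76). Dbp, the D-box activator, was at 370 against 68.9 CPM in Irx3/5dHet, 5.36-fold (3.72 to 7.60), and at 326 against 80.2 CPM in WT, 4.07-fold (3.06 to 5.37). With suprachiasmatic cells picked by UMIs of at least 2 markers, or by each cell's own marker score, instead of by cluster, 1 of the 10 genes was called in both libraries, Nr1d1.

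The early repressors Per1 and Per2 were called higher in suprachiasmatic-like neurons in Irx3/5dHet alone, on 6 and 5 UMIs. Per1 was 3.38-fold (1.14 to 8.41) there in Irx3/5dHet and 1.92-fold (0.803 to 4.15) in WT. Per2 was 6.11-fold (1.69 to 18.6) in Irx3/5dHet and 3.56-fold (0.937 to 11.8) in WT. Whether the libraries differ in these folds was not tested. The activators Clock and Arntl and the repressors Per3, Cry1 and Cry2 had folds from 0.752 (Arntl) to 1.54 (Cry1) in Irx3/5dHet and from 0.967 (Cry1) to 1.60 (Arntl) in WT, all with intervals that held 1. Arntl, for example, had 2 UMIs in Irx3/5dHet and 10 in WT suprachiasmatic-like neurons.

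**Figure D2:**
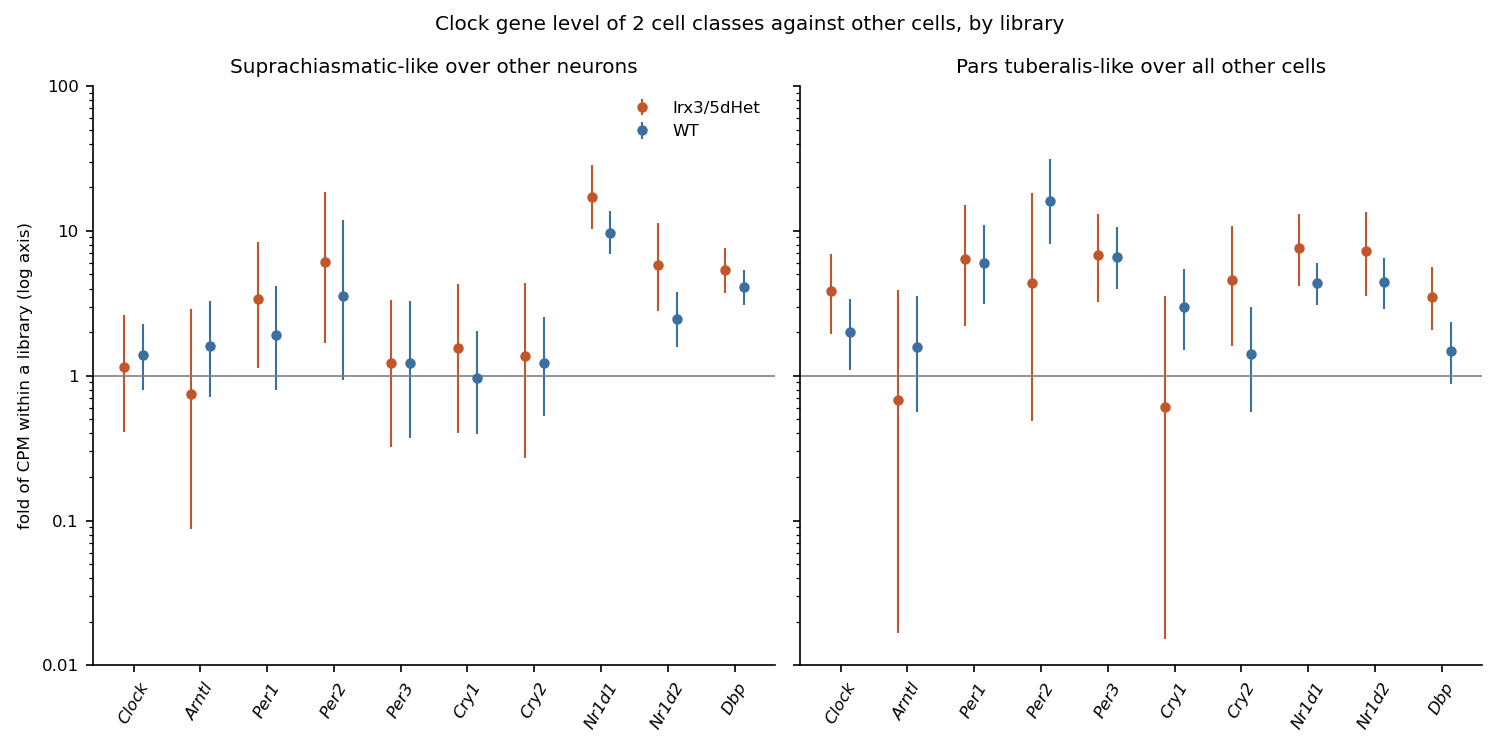
Fold of each gene's CPM on a log axis, for suprachiasmatic-like neurons over other neurons (left) and pars tuberalis-like cells over all other cells (right), with Irx3/5dHet left of WT. Points are folds and bars exact 95% conditional intervals for counting error. Nr1d1, Nr1d2 and Dbp lie clear of 1 in both libraries on the left panel, while 5 genes do so on the right.

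Pars tuberalis-like cells stood above all other cells in 5 genes in both libraries: Per1, Per3, Clock, Nr1d1 and Nr1d2. In each library alone 7 of the 10 were called, where the upward background was 5.38% of genes in Irx3/5dHet and 7.56% in WT. Per3 had 155 CPM in Irx3/5dHet and 141 CPM in WT pars tuberalis-like cells, folds of 6.83 (3.25 to 13.1) and 6.64 (3.96 to 10.7). The Per1 folds were 6.34 and 6.03, those of Nr1d1 7.63 and 4.35, those of Nr1d2 7.22 and 4.402, and those of Clock 3.85 and 1.99, each pair with Irx3/5dHet before WT. Per2 had 2 UMIs in Irx3/5dHet (4.35-fold, 0.489 to 18.2) and 16 in WT (16.2-fold, 8.10 to 31.3). Cry1, the late repressor, had 1 UMI in Irx3/5dHet (0.611-fold) and 12 in WT (3.002-fold). Set directly against each other, the libraries had log2 ratios of -1.86 (-5.03 to 0.22) for Per2 and -2.45 (-7.87 to 0.31) for Cry1 in these cells, so a difference was not detectable at this depth.

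Tanycyte-like cells had 3 of the 10 genes called above other neurons in WT, where 18.6% of all genes were, and 0 in Irx3/5dHet, where 15.5% were. In WT, Per3 was 3.36-fold (1.97 to 5.82), Nr1d1 2.54-fold (1.76 to 3.66) and Cry2 2.18-fold (1.40 to 3.39) above other neurons. In Irx3/5dHet the corresponding folds were 0.173 (0.00429 to 1.01), 0.804 (0.157 to 2.58) and 1.82 (0.677 to 4.19).

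Between the libraries, over all cells, 3 of the 10 genes were called and all were lower in Irx3/5dHet: Nr1d1, Nr1d2 and Cry2. Of all 18951 genes with at least 10 UMIs, 20.3% were called by the same rule, and 14.7% were called lower in Irx3/5dHet, so 3 of 10 stands not far above the background. Among genes within the range of UMIs of the 10, 22.6% were called and 16.9% were lower. Nr1d1 had 98 UMIs in Irx3/5dHet and 310 in WT, or 34.4 and 72.8 CPM, a log2 ratio of -1.08 (-1.43 to -0.75). Nr1d2 had 77 and 209 UMIs, or 27.0 and 49.1 CPM, a log2 ratio of -0.86 (-1.26 to -0.48). Cry2, a repressor of the CLOCK pair, had 57 and 137 UMIs, or 19.99 and 32.2 CPM, a log2 ratio of -0.69 (-1.16 to -0.23). The median log2 ratio was -0.26 over the 10 genes and -0.09 over all genes.

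The other 7 genes were not called. Dbp, which shares E-box control with Nr1d1, had 231 UMIs in Irx3/5dHet and 356 in WT, or 81.0 and 83.6 CPM, a log2 ratio of -0.05 (-0.29 to 0.20). Per1 had 43 and 75 UMIs (-0.22), Per2 20 and 42 (-0.49) and Per3 74 and 109 (0.02). Cry1 had 65 and 117 UMIs (-0.27), Clock 134 and 213 (-0.09) and Arntl 59 and 106 (-0.27). These 7 log2 ratios all had intervals that held 0. A list of 6 E-box driven genes, Per1, Per2, Per3, Nr1d1, Nr1d2 and Dbp, summed to 191 CPM in Irx3/5dHet and 259 CPM in WT, a log2 ratio of -0.44 (-0.59 to -0.29). That sum holds the 2 called genes Nr1d1 and Nr1d2, and the intervals of Per1, Per2, Per3 and Dbp each held 0. It therefore does not show a drop shared by the list. With Cry1 and Cry2, which E-boxes also drive, the sum was at -0.45 (-0.58 to -0.31), a setting added after the data were seen. Within that group Nr1d1 was lowest at -1.08 and Per3 highest at 0.02.

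All-cell sums mix classes whose shares differ between the libraries. Weighted over classes (Mantel-Haenszel), the fold of Nr1d1 was 0.581 (0.460 to 0.733), that of Nr1d2 0.568 (0.436 to 0.740) and that of Cry2 0.646 (0.469 to 0.889). Dbp was at 0.981 (0.827 to 1.165) with the same weighting. These intervals are approximate and take 1 ratio as common to all classes, which the unequal Nr1d1 ratios below did not show. For Nr1d1 the unweighted fold was 0.472, farther from 1. Without suprachiasmatic-like and pars tuberalis-like cells, a setting added after the data were seen, Nr1d1 had 46 UMIs in Irx3/5dHet and 172 in WT, a log2 ratio of -1.37 (-1.87 to -0.90).

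Nr1d1 was below its WT level in Irx3/5dHet in all 7 classes with enough UMIs, by unequal amounts that depended on how cells were classed. In suprachiasmatic-like neurons it had 36 UMIs in Irx3/5dHet and 94 in WT, 296 against 360 CPM, a log2 ratio of -0.28 (-0.88 to 0.28). In pars tuberalis-like cells the UMIs were 16 and 44 and the log2 ratio -0.32 (-1.25 to 0.53). Other neurons had 31 and 62 UMIs, 17.4 against 37.1 CPM, a log2 ratio of -1.09 (-1.77 to -0.45). Tanycyte-like cells had 3 and 63 UMIs, 13.97 against 94.2 CPM, a log2 ratio of -2.75 (-5.07 to -1.14). The suprachiasmatic-like and tanycyte-like intervals both left out the all-cell value of -1.08, from opposite sides. With cells classed by their own marker score instead of by cluster, the order of the neuron classes turned round. Nr1d1 was then at -1.37 in suprachiasmatic-like neurons, lower than in other neurons, where its interval held 0. Ependymal-like cells, the neighbours of tanycytes along the ventricle, had 1 UMI in Irx3/5dHet and 12 in WT. The share of cells with an Nr1d1 UMI was also taken in cells thinned at random to 1000 UMIs each. It was 2.34% in Irx3/5dHet and 2.79% in WT other neurons, and 1.25% and 7.75% in tanycyte-like cells. Suprachiasmatic-like neurons were at 27.1% and 26.4%, and pars tuberalis-like cells at 12.9% and 25.7%. These shares were not tested.

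**Figure D3:**
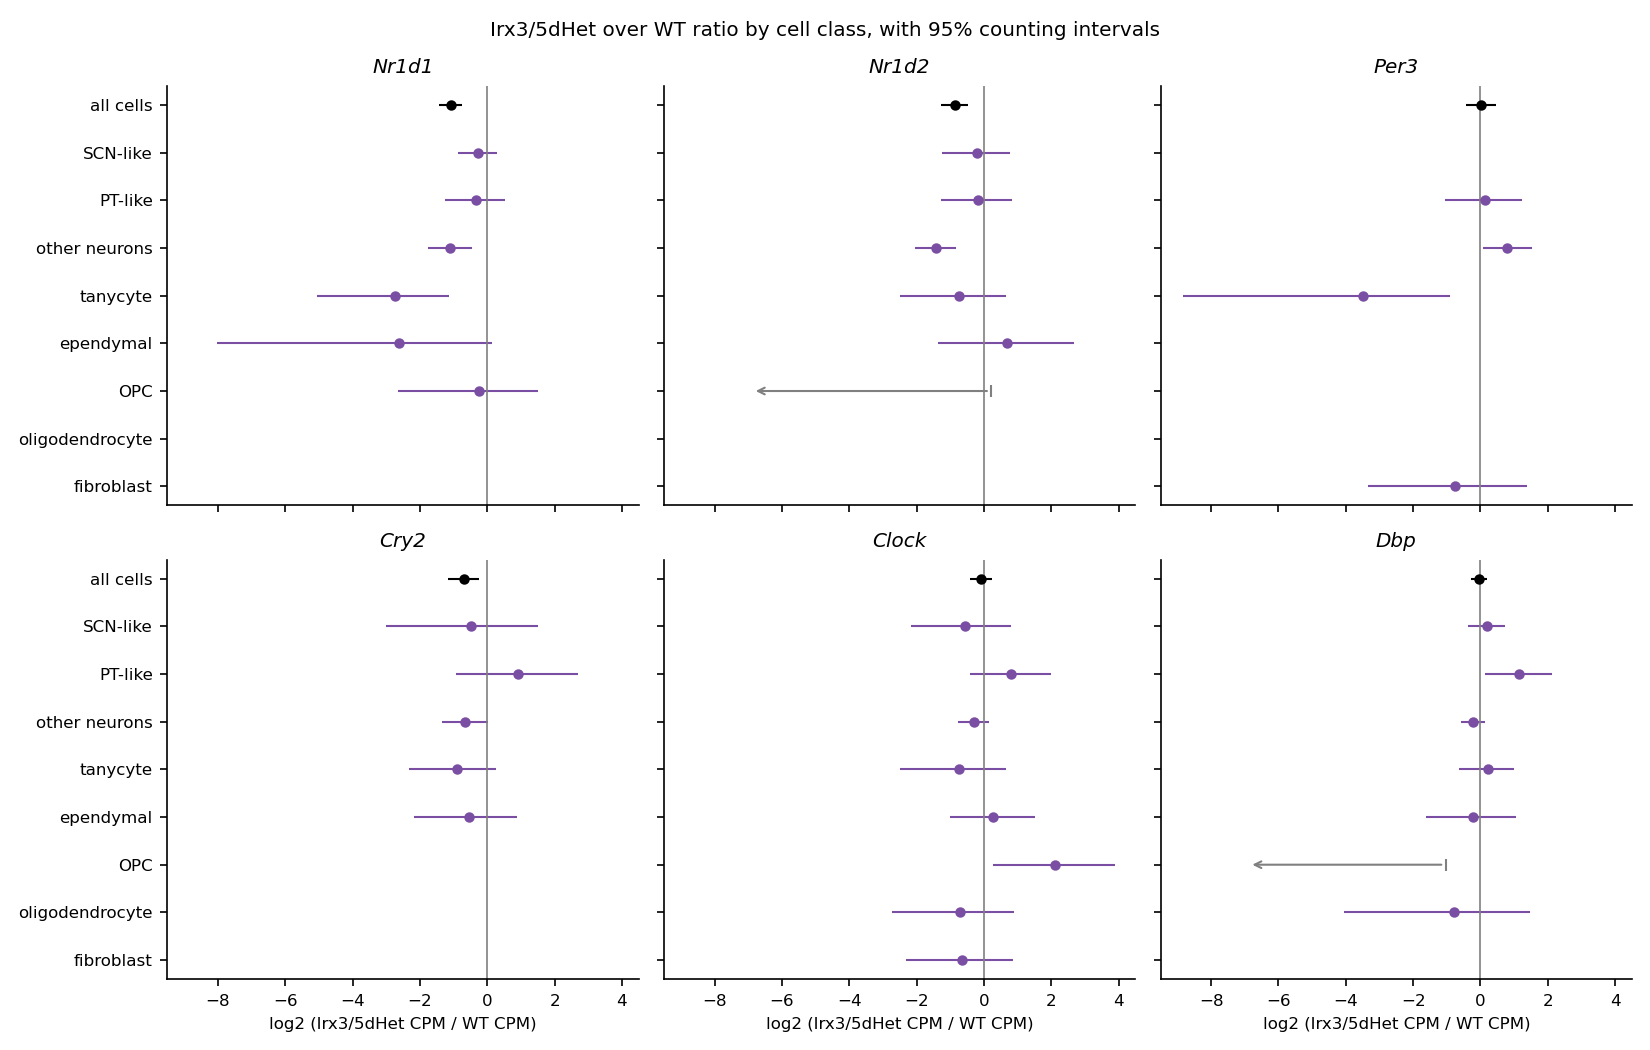
Log2 ratio of CPM, Irx3/5dHet over WT, for 6 clock genes in all cells (black) and in 8 classes (purple), with exact 95% intervals for counting error. Classes with under 10 UMIs are left blank, and grey arrows mark classes with 0 Irx3/5dHet UMIs, starting at the ratio that a floor of 3 counts gives and pointing to lower ratios. Nr1d1 lies at -0.28 in suprachiasmatic-like (SCN-like) cells and at -2.75 in tanycyte-like cells (PT-like, pars tuberalis-like; OPC, oligodendrocyte precursor-like).

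In suprachiasmatic-like neurons 0 of the 9 genes with enough UMIs were called, where 10.5% of all genes were. The lower marker sum of the Irx3/5dHet cells of this class stands beside these ratios, and its part in them was not tested. Nr1d2 had 13 UMIs in Irx3/5dHet and 32 in WT, a log2 ratio of -0.20 (-1.25 to 0.77). Dbp had 45 and 85 UMIs, a log2 ratio of 0.18 (-0.37 to 0.72). The intervals are wide: for Nr1d1 the range runs from a fold of 0.543 to 1.22, so a loss as large as the class-weighted one lies inside it. The E-box driven genes summed had 896 CPM in Irx3/5dHet and 882 CPM in WT there, a log2 ratio of 0.02 (-0.32 to 0.36). With cells assigned by their own marker score instead of by cluster, 5 genes were called in this class and Nr1d1 was at -1.37.

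Other neurons had 3 of 10 genes called, against 15.5% of all genes in either direction. Nr1d1 and Nr1d2 were lower in Irx3/5dHet, where the background for lower calls was 11.5%. Nr1d2 had 33 UMIs in Irx3/5dHet and 83 in WT, 18.5 against 49.7 CPM, a log2 ratio of -1.42 (-2.05 to -0.83). In cells thinned to 1000 UMIs, 1.64% of Irx3/5dHet and 7.21% of WT other neurons held an Nr1d2 UMI, against 2.34% and 2.79% for Nr1d1. Per3 was higher in Irx3/5dHet, with 48 and 26 UMIs, 26.9 against 15.6 CPM and a log2 ratio of 0.79 (0.07 to 1.54). The background for higher calls was 4.01%. Of these Per3 UMIs, 11 in Irx3/5dHet and 0 in WT lay in the cluster led by Npy and Agrp, the hunger neurons, which held 42 Irx3/5dHet and 13 WT cells. Without that cluster, a setting added after the data were seen, Per3 was at 0.52 (-0.24 to 1.30) and no longer called, while Nr1d1 was at -0.97 and Nr1d2 at -1.49. In the largest neuron cluster (294 Irx3/5dHet and 251 WT cells) Nr1d1 had 24 and 40 UMIs, a log2 ratio of -0.92 (-1.71 to -0.15). Suprachiasmatic markers other than Avp summed to 516 CPM in Irx3/5dHet and 530 CPM in WT other neurons, with Nms at 0 in both. Malat1, a nuclear RNA, was at 4402 CPM in Irx3/5dHet and 7602 CPM in WT other neurons, and its part in these ratios was not tested.

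Tanycyte-like cells had 2 of 8 genes called, both lower in Irx3/5dHet, against 10.3% of all genes in either direction and 5.25% lower. These were Nr1d1 and Per3, which had 1 UMI in Irx3/5dHet and 35 in WT, 4.66 against 52.3 CPM, a log2 ratio of -3.49 (-8.83 to -0.92). Cry2 had 7 and 41 UMIs, a log2 ratio of -0.91 (-2.31 to 0.26), and was not called. Dbp went with neither, at 19 and 51 UMIs, 88.5 against 76.2 CPM, a log2 ratio of 0.21 with an interval that held 0. Both tanycyte clusters showed the same order for Nr1d1, with 2 UMIs in Irx3/5dHet and 36 in WT in the larger and 1 and 27 in the smaller. The Irx3/5dHet tanycyte-like cells were shallower, at a median of 926 UMIs against 1421 in WT. Restricted to cells of 1000 UMIs or more (a setting added after the data were seen), Nr1d1 had 2 and 58 UMIs, 13.2 against 99.1 CPM, a log2 ratio of -2.90 (-5.98 to -0.99). In those cells Cry2 had 2 and 40 UMIs, a log2 ratio of -2.37 (-5.46 to -0.42), past the rule for a call. With each library clustered alone, Per3 was no longer called in this class (-2.22, -7.56 to 0.34).

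Pars tuberalis-like cells had 1 of 9 genes called, against 8.91% of all genes, and 4.61% were called higher. Dbp was higher in Irx3/5dHet, with 19 UMIs in each library, 267 against 122 CPM, a log2 ratio of 1.14 (0.14 to 2.13). Of the Irx3/5dHet UMIs of Dbp, 6 lay in 1 cell, and without each library's top cell the ratio was 0.84 (-0.34 to 1.98). Avp, a gene of suprachiasmatic and magnocellular neurons, had 864 UMIs in Irx3/5dHet and 7 in WT pars tuberalis-like cells, 854 of the 864 in 1 cell. That cell held 0 Dbp UMIs, and without it Dbp was at 1.28 (0.28 to 2.27). The remaining suprachiasmatic markers had 4 and 12 UMIs in the class. The E-box driven genes summed to 929 CPM in each library, a log2 ratio of -0.00 (-0.44 to 0.43).

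The remaining classes held few clock UMIs. In oligodendrocyte precursor-like cells 2 of 4 genes were called, against 6.01% of all genes (3.53% higher and 2.48% lower), on a median of 708.5 UMIs per Irx3/5dHet cell and 1140 per WT cell. The class joined a cluster led by Lhfpl3 (58 Irx3/5dHet and 221 WT cells) and a cluster led by Enpp6 and Gpr17 (14 and 20). Their mix differed between the libraries, and its part in these calls was not tested. Dbp had 0 UMIs in Irx3/5dHet and 31 in WT, 2.05-fold lower when a floor of 3 counts takes the place of the 0. The exact interval of its fold ran up to 0.636, a log2 ratio of -0.65. Clock was called higher, with 6 and 7 UMIs, a log2 ratio of 2.11 (0.26 to 3.91), and not without each library's top cell (1.75, -0.52 to 3.82). Neither ependymal-like (7 genes, background 8.96%), oligodendrocyte-like (3 genes, 9.05%), fibroblast-like (3 genes, 12.5%) nor epithelial-like cells (1 gene, 11.5%) had a gene called. Ependymal-like cells had 1 or 2 genes called under 5 of 12 alternatives. No clock gene reached 10 UMIs in microglia-like or mural-like cells.

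Counted over genes and classes, 7 of 54 class ratios had intervals that left out their gene's all-cell ratio. The same held for 8.57% of class ratios over all genes, and for 6.45% over genes in the 10 genes' range of UMIs. They were Nr1d1 in suprachiasmatic-like and tanycyte-like cells, Per3 in other neurons and tanycyte-like cells, Dbp in pars tuberalis-like and oligodendrocyte precursor-like cells, and Clock in the precursors. Nr1d2, in contrast, had every interval holding its all-cell value. It was lower in Irx3/5dHet in 5 of 6 classes, but called in 1, other neurons, and its other class intervals held 0 too. In cells other than neurons and pars tuberalis-like cells, Nr1d2 was at -0.44 (-1.26 to 0.32). Cry2 was lower in 4 of 5 classes and Arntl in 5 of 5, with no class called. Their intervals all held 0 as well as the all-cell value. Over all cells, calls of all genes also leaned lower, at 14.7% lower and 5.54% higher. Whether the hour of dissection differed between the pools was not tested.

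Nr1d1 overlaps a neighbour. Exons of Nr1d1 (ENSMUSG00000020889, GRCm38 chromosome 11 from 98767932 to 98775333, minus strand) and of Thra, a thyroid hormone receptor gene on the opposite strand, share 263 bases. The labels used here do not say whether the authors' counting used the strand. Thra had 916 UMIs in Irx3/5dHet and 1356 in WT over all cells, a log2 ratio of 0.01 (-0.11 to 0.13). In tanycyte-like cells it had 76 and 214 UMIs and a log2 ratio of 0.15 (-0.25 to 0.53), where Nr1d1 was at -2.75. In suprachiasmatic-like neurons Thra was called higher, as were 4.82% of all genes, with 45 and 64 UMIs and a log2 ratio of 0.59 (0.01 to 1.16). The part of shared exons in the Nr1d1 and Thra ratios was not tested. Exons of Dbp (chromosome 7 from 45705088 to 45710203) overlap those of Sphk2 by 539 bases, those of Cry2 overlap D930015M05Rik by 295 and those of Arntl overlap Gm45355 by 33.

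Beyond the 10 genes, 2 of 28 other clock genes were called over all cells, both lower in Irx3/5dHet, a smaller share than the 14.7% of all genes called lower. Bhlhe40 (DEC1), an E-box repressor, had 96 UMIs in Irx3/5dHet and 226 in WT, 33.7 against 53.1 CPM, a log2 ratio of -0.66 (-1.02 to -0.31). Usp2, a deubiquitinase that acts on clock proteins, had 93 and 246 UMIs, 32.6 against 57.8 CPM, a log2 ratio of -0.83 (-1.19 to -0.48). The list of the nuclear receptor loop summed to 223 CPM in Irx3/5dHet and 331 CPM in WT, a log2 ratio of -0.57 (-0.71 to -0.43), with 2 of 4 genes called lower. Its activators Rora (224 and 415 UMIs, log2 ratio -0.31) and Rorb (237 and 474 UMIs, -0.42) were not called. Negative limb genes summed to -0.31 (-0.54 to -0.09) with 1 of 5 called, the positive limb to -0.10 (-0.35 to 0.15) with 0 of 4, and other repressors to -0.48 (-0.72 to -0.25) with 1 of 3.

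In the D-box family 0 of 4 genes, Dbp included, were called over all cells. Hlf, a relative of Dbp, had 401 UMIs in Irx3/5dHet and 667 in WT (log2 ratio -0.16), Tef 171 and 295 (-0.21) and their antagonist Nfil3 (E4BP4) 59 and 116 (-0.40), and the list summed to -0.16 (-0.28 to -0.03). Hlf was called lower in other neurons, as were 11.5% of all genes, with 126 and 218 UMIs and a log2 ratio of -0.89 (-1.21 to -0.56). In pars tuberalis-like cells it was called higher, as were 4.61% of all genes, with 141 and 196 UMIs. Its level there was 1984 against 1256 CPM, a log2 ratio of 0.66 (0.34 to 0.98). The repressors Ciart and Bhlhe41 had 20 and 45 UMIs (-0.59) and 104 and 188 UMIs (-0.28).

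Kinases and ubiquitin ligases that set the turnover of PER and CRY summed to 1034 CPM in Irx3/5dHet and 1004 CPM in WT, a log2 ratio of 0.04 (-0.03 to 0.11), with 0 of 8 called. Csnk1a1 was at 0.03, Csnk1d and Csnk1e at 0.00 and -0.00, Csnk2a1 at -0.15, Gsk3b at 0.20, Btrc at 0.18, Fbxw11 at -0.06 and Fbxl21 at -0.05. Partners of the loop summed to 0.04 (-0.06 to 0.13), although their median was -0.15, with 1 of 10 called, Usp2. Sfpq (0.52), Nrip1 (0.24) and Tipin (0.11) were above 0, while Nono (-0.01), Cul4a (-0.05), Dtx4 (-0.27), Wdr5 (-0.39), Timeless (-0.39) and Ddb1 (-0.40) were below it. Timeless stood apart by class: of 69 UMIs in Irx3/5dHet and 135 in WT, 56 and 111 lay in pars tuberalis-like cells, 788 against 711 CPM.

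**Figure D4:**
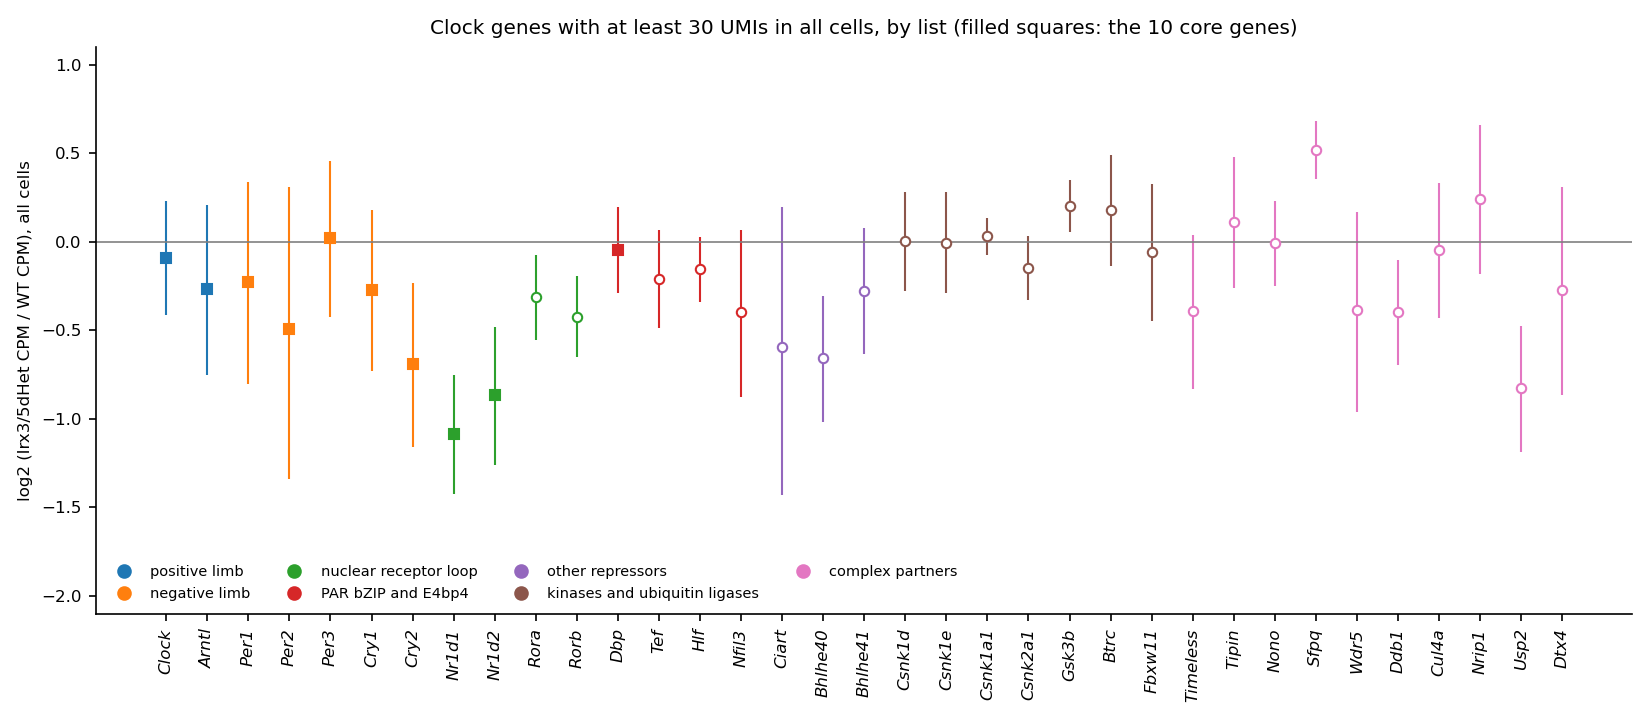
Log2 ratio of CPM, Irx3/5dHet over WT, summed over all cells, for the 10 core clock genes (filled squares) and the further clock genes with at least 30 UMIs (open circles), coloured by list. Bars are exact 95% intervals for counting error. Nr1d1, Nr1d2, Cry2, Bhlhe40 and Usp2 are the genes past 1.5-fold with intervals below 0.

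Rorb was called higher in both clock tissues of both libraries, and Rora in suprachiasmatic-like neurons. In suprachiasmatic-like over other neurons Rora was 17.2-fold higher (12.5 to 23.6) in Irx3/5dHet and 13.3-fold (10.3 to 17.3) in WT, and Rorb was 11.04-fold and 6.70-fold higher. Pars tuberalis-like over all other cells gave 16.7-fold for Rorb in Irx3/5dHet and 12.2-fold in WT, and 21.2-fold and 10.9-fold for Hlf. Rora was at 1.45-fold (0.618 to 2.91) there in Irx3/5dHet and 1.33-fold (0.804 to 2.08) in WT, not called in either. Over 22 class-by-library sums, which share 11 classes and each library's depth, the genes whose levels ran most like Nr1d1 among 6830 genes were Pdcd4 (Pearson r 0.837), Rorb (0.830) and Msl1 (0.829). For Dbp they were Lrrc73 (0.916), D3Ertd751e (0.845) and Wdr6 (0.829), and for Clock they were Hnrnpll (0.763), Rabepk (0.762) and Thap1 (0.748).

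Immediate early genes, which light, activity and tissue handling can induce, were called lower for 11 of 20 genes over all cells, against 14.7% of all genes, at 3840 CPM in Irx3/5dHet and 5768 CPM in WT, a log2 ratio of -0.59. Fos had 3047 and 7596 UMIs (-0.74), Jun 2224 and 4518 (-0.44), Egr1 878 and 2213 (-0.76) and Jund 1006 and 1489 (0.01). In tanycyte-like cells that list was at -0.25 (-0.31 to -0.19), with 4 of 19 called lower and 1 higher, against 5.25% and 5.03% of all genes. In suprachiasmatic-like neurons it was at 0.04 (-0.15 to 0.22). Other neurons were at -0.48 (-0.55 to -0.41), with 6 of 20 called lower, against 11.5% of all genes, and 1 higher, against 4.01%. Pars tuberalis-like cells were at -0.67 (-0.85 to -0.49). It ran the other way in oligodendrocyte precursor-like, microglia-like, epithelial-like and mural-like cells. The precursor-like cells were at 0.91 (0.66 to 1.16), with 4 of 12 called higher, against 3.53% of all genes. Microglia-like cells were at 0.58, with 7 of 15 called higher, against 6.23%. Epithelial-like cells were at 0.39, with 5 of 17 called higher, against 5.33%. Mural-like cells were at 0.22, with 1 of 16 called higher and 1 lower, against 4.02% and 4.97%. Glucocorticoid-responsive genes had 3 of 12 called lower over all cells, against 14.7% of all genes, and a log2 ratio of -0.59. Among them Mt1 was at -0.78, Mt2 at -0.40, Tsc22d3 at -0.46 and Klf9 at -0.20. They were at -0.03 (-0.14 to 0.07) in tanycyte-like cells and at 0.93 (0.29 to 1.57) in suprachiasmatic-like neurons, on 41 UMIs in Irx3/5dHet and 46 in WT. In other neurons they were at -0.73 (-0.91 to -0.55), with 3 of 10 called lower, against 11.5% of all genes. In pars tuberalis-like cells they were at -0.32 (-0.53 to -0.11). Temperature-responsive genes split: Hsp90aa1 (0.44), Hsph1 (0.47) and Hspe1 (0.25) were above 0 and Hspa1a (-0.83) below, for a sum of 0.07. Of these 10 genes, 1 was called higher and 2 lower over all cells, against 5.54% and 14.7% of all genes. Their sum also split by class, at -0.51 (-0.61 to -0.42) in tanycyte-like and -0.55 in fibroblast-like cells. Other neurons were at 0.28 (0.24 to 0.33) and microglia-like cells at 1.29. Suprachiasmatic output genes had 1 of 9 called higher and 4 lower over all cells, against 5.54% and 14.7% of all genes. Their median was -0.49 and their sum 0.18. Avp had 4730 UMIs in Irx3/5dHet and 4737 in WT (0.58), 854 of the Irx3/5dHet UMIs in the pars tuberalis-like cell named above, and Vip had 287 and 1290 (-1.59). Rgs16 had 207 and 542 UMIs (-0.81) and Gem 125 and 350 (-0.91). UMIs of predicted genes were 6.04% in Irx3/5dHet and 8.38% in WT, and mitochondrial UMIs 1.81% and 1.97%. Malat1 was at 6986 CPM in Irx3/5dHet and 9382 CPM in WT. The part of these groups in the clock gene ratios was not tested.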

How the data were processed

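Drop-seq reads were processed by the authors with bcl2fastq, Picard and STAR 2.6.0b against mm10, and Seurat 3 is also named, per the submitters' processing notes. The annotation and any use of strand in counting are not stated there. The deposited tables of each library hold UMI counts per gene and barcode. A merged table the authors deposited holds 4297 cells as the natural log of 1 plus scaled counts, as its values show, and served only as a list of cells for an alternative.

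From the counts, barcodes were kept at 300 or more detected genes and a mitochondrial share no higher than 20%. Scrublet (expected rate 5%) marked 17 of 3889 (0.437%), so used cells may still hold doublets. Clustering used scanpy 1.11.5 and leidenalg 0.10.2 in Python 3.11.15 (2000 variable genes, 30 components, 20 neighbours, resolution 1; 20 clusters). A cluster was named from at least 3 markers, and a suprachiasmatic one also needed 2 among its top 10 genes. Endothelial-like and cycling-like cells were under the minimum of 30 cells per library and were not compared.

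UMIs were summed per class and library. Ratios are of CPM, with exact conditional or Poisson intervals at 95% (scipy 1.17.1), for genes with at least 10 UMIs. Medians add 0.5 to each count. Shares of cells with a UMI are of cells with at least 1000 UMIs, each thinned at random to 1000. A count of 0 is read against a floor of 3 counts. Intervals and floors cover counting error only. The ratio intervals and the rule for a call were tested on Poisson counts simulated from the all-cell sums. Filtering, clustering, naming, thinning, class weighting and spread between cells were not simulated. The 10 genes and all lists were chosen with earlier results of these data known. Named genes are the 10, other clock genes with at least 30 UMIs, up to 4 genes with the most UMIs of each later list, and for the 3 members with the most UMIs the 3 genes of highest correlation of log2(CPM + 10) among genes with at least 200 UMIs. A few genes with fewer UMIs were named after their values were seen. Some genes of the clock lists are not reported here and are left out of the lists' sums and counts. Gene positions are from GENCODE release 21 (mouse), in which 27805 of 29809 names were found.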

Additional observations from a re-analysis of the deposited data

Results flagged for a closer look

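Per3 had opposite directions in different classes, and the difference was not tested. In other neurons its log2 ratio was 0.79, higher in Irx3/5dHet, and in tanycyte-like cells it was -3.49, lower in Irx3/5dHet, on 1 UMI in Irx3/5dHet and 35 in WT.

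Dbp likewise had opposite directions, and the difference was not tested. In pars tuberalis-like cells its log2 ratio was 1.14, higher in Irx3/5dHet. In oligodendrocyte precursor-like cells, with 0 UMIs in Irx3/5dHet, the log2 ratio against a floor of 3 counts was -1.04. That value leaves out the counting error of the 31 WT UMIs, and the exact interval ran up to -0.65.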

How the results depend on the processing

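No paired analysis was possible because each genotype had 1 library, and no result came from a test. No value changed sign while called. Over all cells, Nr1d1 stayed between -1.37 and -0.73 and Nr1d2 between -0.97 and -0.80 under 18 alternatives, with every interval below 0, and the interval of Cry2 left out 0 in 17 of the 18. In tanycyte-like cells Nr1d1 ranged from -3.30 to -2.29 under 13 alternatives. In other neurons it ranged from -1.34 to -0.65 under 16, and with cells classed by their own marker score the interval held 0 (-1.60 to 0.27). Counts that moved included those of genes called in tanycyte-like cells (2, and 1 with each library clustered alone), of class ratios apart from the all-cell ratio (7, with 11 by the mean over cells, 4 with each library clustered alone and 4 with cells of at least 1000 UMIs) and of genes higher in suprachiasmatic-like than in other neurons in both libraries (3, with 1 by the own marker score and 1 by 2 markers per cell). The count of genes called also moved under 1 of 13 alternatives in suprachiasmatic-like neurons (0, up to 5), 2 of 14 in pars tuberalis-like (1, from 0 to 3), 5 of 12 in ependymal-like (0, up to 2), 4 of 12 in oligodendrocyte precursor-like (2, down to 1) and 1 of 13 in fibroblast-like cells (0, up to 1). For these the cause was not tested. Depth also limits the values: Per1, Per2, Per3, Cry1, Cry2 and Arntl had under 200 UMIs each over both libraries, and the 70 and 44 Irx3/5dHet cells of the suprachiasmatic-like and pars tuberalis-like classes leave wide intervals.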
